A study of Homo sapiens with 36 samples.

Results

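Transcripts of 7 genes that are otherwise known from muscle, blood vessels, neurons, testis, liver and intestine were counted in 3 B-cell leukaemia lines after drug exposure. The genes were TRIM55, PTGIR, CEND1, UPB1, QRICH2, SPATA31D1 and C6orf222 (current symbol BNIP5), 7 of the 37549 gene symbols counted. They were chosen by their measured values in these libraries, because each was higher than with the vehicle dimethyl sulphoxide (DMSO) for all 3 drugs in all 3 lines. All 7 passed the filter on low counts in each line. The rule set no numeric limit, and the smallest changes it let in were log2 fold changes of 0.70 for UPB1 in JVM2, 0.72 for QRICH2 in EHEB and 0.74 for CEND1 in MEC1, each with fludarabine.

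RNA of the lines MEC1, JVM2 and EHEB was sequenced after ribosomal RNA depletion in 36 libraries, 3 for each of 12 groups. Cells received DMSO, 50 µM of the purine analogue fludarabine, 5 µM of the Bruton tyrosine kinase (BTK) inhibitor ibrutinib, or 10 µM of the phosphoinositide 3-kinase delta inhibitor idelalisib. MEC1 was harvested after 48 h, JVM2 after 72 h and EHEB after 96 h, so line and time cannot be told apart. Libraries are named by line and number. DMSO and fludarabine libraries carry 1 run of numbers in each line (MEC1_37 to MEC1_48, JVM2_85 to JVM2_96, EHEB_133 to EHEB_144) and the libraries of both kinase inhibitors another (MEC1_184 to MEC1_192, JVM2_232 to JVM2_240, EHEB_280 to EHEB_288), which holds no DMSO library. A kinase inhibitor against DMSO or against fludarabine therefore cannot be told apart from 1 run of numbers against the other, while ibrutinib and idelalisib share a run. The sample labels do not say whether the 3 libraries of a group came from separate cultures. In general terms, the study's methods give at least 3 independent experiments for results outside its drug conjugation assays, without naming these libraries. The p values measure the spread between these libraries only.

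The 7 genes have separate roles. TRIM55 (MuRF2) is a RING-finger ubiquitin ligase of striated muscle that binds the sarcomere and microtubules. PTGIR is the receptor for prostacyclin, a G protein-coupled receptor of platelets and vascular smooth muscle that raises cyclic AMP. CEND1 is a membrane protein of neurons and their precursors that promotes exit from the cell cycle. UPB1 (beta-ureidopropionase) is a liver and kidney enzyme that completes the breakdown of uracil and thymine. QRICH2 is needed to build the sperm flagellum, and SPATA31D1 belongs to a family of testis proteins. C6orf222 encodes a little-studied protein, named for its resemblance to partners of BCL2, with transcripts known mainly from intestine.

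The lines kept a B-cell profile in these counts. All 9 B-cell markers examined, MS4A1 and CD79A among them, were above 1 CPM on average in each line. CPM are read counts scaled to a TMM-normalised library of 1000000 counts (TMM is the trimmed mean of M values, which centres the bulk of the genes). The B-cell markers summed to between 2288 and 7252 CPM per library. CD3D, CD3G and CD8A of T cells, and CD14, LYZ, MPO and FCGR3A of myeloid cells, stayed under 1 CPM on average in each line. TRAC and ITGAM exceeded it in each line, CSF1R in MEC1 and JVM2, and CD3E and CD2 in EHEB. That is 1 to 3 of the 6 T-cell and 1 or 2 of the 6 myeloid markers. Per library the T-cell markers summed to between 16.2 and 61.4 CPM and the myeloid markers to between 6.59 and 63.3 CPM. The 5 erythroid and platelet markers summed to at most 0.352 CPM in a library. Libraries held 26590705 to 53538925 counts (median 42114145). The fludarabine libraries of MEC1 were the smallest of that line, with 26590705 to 34231720 counts.

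The promoters are shown because these genes were chosen for being higher with each drug and are not known from 1 pathway. RefSeq sequence of GRCh38.p14, from 250 bases before to 50 after the start that RefSeq annotates, was held for 5 of the 7 genes. The windows, written on the strand of the gene, are chr11:790041-790340 (minus strand) for CEND1, chr17:76308227-76308526 (minus) for QRICH2, chr22:24495082-24495381 (plus) for UPB1, chr9:81988522-81988821 (plus) for SPATA31D1 and chr6:36336839-36337138 (minus) for C6orf222. Capitals mark the motifs found on either strand.
CEND1: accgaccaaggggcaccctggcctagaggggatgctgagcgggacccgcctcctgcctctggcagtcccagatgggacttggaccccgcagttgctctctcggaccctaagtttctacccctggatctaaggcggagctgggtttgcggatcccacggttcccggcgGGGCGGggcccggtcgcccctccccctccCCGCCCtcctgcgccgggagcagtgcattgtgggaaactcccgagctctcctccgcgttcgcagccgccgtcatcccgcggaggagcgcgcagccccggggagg
QRICH2: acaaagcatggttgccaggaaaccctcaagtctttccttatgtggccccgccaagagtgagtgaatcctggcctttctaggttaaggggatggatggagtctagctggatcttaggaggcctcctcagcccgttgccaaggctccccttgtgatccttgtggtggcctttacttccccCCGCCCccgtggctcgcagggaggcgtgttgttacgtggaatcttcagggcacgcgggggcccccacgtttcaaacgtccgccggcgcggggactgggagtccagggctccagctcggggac
UPB1: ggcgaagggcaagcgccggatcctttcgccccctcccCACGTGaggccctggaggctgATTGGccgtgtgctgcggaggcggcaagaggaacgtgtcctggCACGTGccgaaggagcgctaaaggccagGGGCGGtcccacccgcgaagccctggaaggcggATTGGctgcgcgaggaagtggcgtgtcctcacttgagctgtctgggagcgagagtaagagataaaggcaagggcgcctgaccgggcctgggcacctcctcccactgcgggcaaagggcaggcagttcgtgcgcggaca
SPATA31D1: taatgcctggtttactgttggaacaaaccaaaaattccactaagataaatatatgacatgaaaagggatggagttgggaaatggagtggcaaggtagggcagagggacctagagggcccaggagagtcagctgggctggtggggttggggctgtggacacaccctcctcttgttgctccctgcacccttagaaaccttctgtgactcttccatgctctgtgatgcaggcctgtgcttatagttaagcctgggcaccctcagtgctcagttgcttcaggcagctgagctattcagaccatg
C6orf222: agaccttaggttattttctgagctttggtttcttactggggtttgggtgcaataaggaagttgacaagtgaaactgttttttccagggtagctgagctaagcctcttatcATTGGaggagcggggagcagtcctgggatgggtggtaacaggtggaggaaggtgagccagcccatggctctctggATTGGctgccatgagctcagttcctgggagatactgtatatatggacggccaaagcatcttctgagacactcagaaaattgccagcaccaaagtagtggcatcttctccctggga

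Of 7 motifs searched on both strands, 3 of the windows held GGGCGG (GC box), and 44.95% of all 35116 promoters of this length hold it. CEND1 had 2 copies, and QRICH2 and UPB1 had 1 each. CCAAT stood in 2 copies in UPB1 and in 2 in C6orf222 (34.61% of all promoters), each on the strand opposite to the gene. CACGTG (E-box) was found in UPB1 only, in 2 copies (7.26%). The forkhead motif GTAAACA, which 3.42% of all promoters hold, was in none of the 5 windows. Nor was the cyclic AMP response motif TGACGT, present in 7.98% of promoters. The AP-1 motif TGAGTCA (4.95% of promoters) was likewise not found in any window. The exact string TATAAA, 1 spelling of the TATA box held by 11.53% of promoters, was also missing from all 5. Other spellings were not searched, and the C6orf222 window holds TATATAT shortly before the start, which that string misses. No motif searched was shared by the 5 windows. SPATA31D1 held none of the 7 motifs. Base composition differed as well. GC content was 70.7% in CEND1, 67.3% in UPB1 and 61.3% in QRICH2, above the median of 58.7% over all promoters, and 51.3% in SPATA31D1 and 49.7% in C6orf222, below it. The ratio of observed to expected CpG was 0.72, 0.78 and 0.57 in the first 3 of these, near or above the median of 0.58, and 0 in SPATA31D1 and 0.11 in C6orf222.

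In each of the 63 pairs of gene and comparison, every treated library was above every DMSO library of its line. For comparison, in MEC1 the share of all genes tested that showed no such overlap was 29.0% for fludarabine, 28.3% for ibrutinib and 30.5% for idelalisib. The corresponding shares were 31.6%, 22.1% and 28.2% in JVM2 and 24.5%, 15.5% and 22.1% in EHEB. Since the genes were picked for being higher in these comparisons, 63 of 63 is the rule restated and carries no test. The rule set no limit on the size of the change, but being higher in every comparison favours larger changes, so the sizes are a description too. The log2 fold change exceeded 1 in 50 of the 63 pairs, where the 6 pairs with no DMSO count enter as lower bounds at 3 counts per DMSO library. The share of all genes above 1 is not given here, so this count is no result about the members. Its median over the 7 genes was 2.96, 2.36 and 2.18 with fludarabine, ibrutinib and idelalisib in MEC1 with these bounds, and 2.27, 2.02 and 1.93 with bounds at 8 counts. The second floor, chosen after seeing the data, stands for 3 reads, since low counts came in steps of about 8/3 and 3 counts may be a single read. In the same order the median was 1.41, 1.07 and 1.59 in JVM2, and 1.10, 1.07 and 1.95 in EHEB. The rule fixed the sign of these medians and bore on their size, so they are given with no test. As background, the median over all genes tested lay between −0.0014 and 0.081.

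All changes are given relative to TMM normalisation. Scaling by library size alone moved the median of all genes from 0.056 to 0.31 with fludarabine in MEC1, from 0.056 to 0.26 with fludarabine in JVM2, and to between 0.11 and 0.13 in EHEB, and it left every change of the 7 genes positive. The number of genes with at least 10 counts moved with the treatments in MEC1. It was 15023 to 15534 with DMSO against 15749 to 16435 with fludarabine, 16070 to 16795 with ibrutinib and 15971 to 16694 with idelalisib. JVM2 had 15471 to 15893 such genes with DMSO, 16835 to 17299 with fludarabine and 16202 to 16891 with idelalisib, whereas its ibrutinib libraries (15473 to 16145) overlapped DMSO. In EHEB every treated group overlapped DMSO (16081 to 16531). The part of this wider detection in the changes of the 7 genes was not tested. In bulk RNA, more cells with a transcript and more transcript per cell cannot be told apart.

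**Figure D1:**
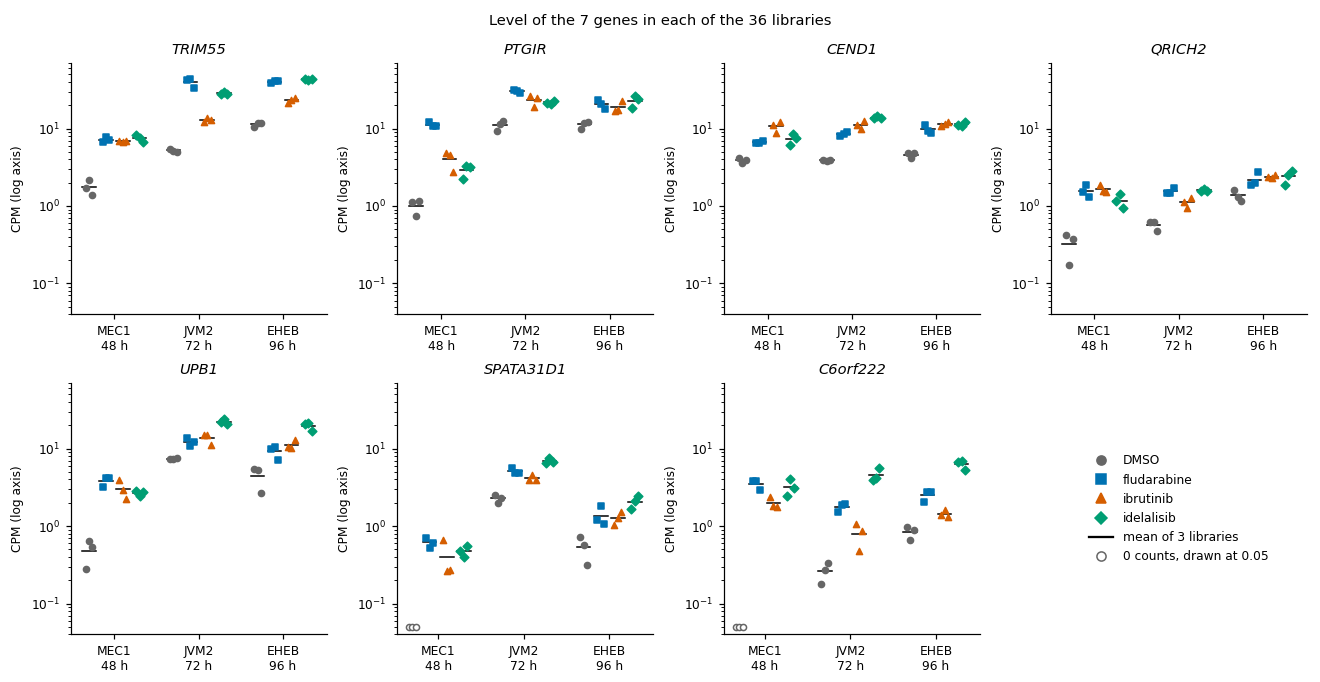
Level of each gene in CPM (vertical axis, logarithmic) in the 36 libraries, grouped by line along the horizontal axis. Each symbol is 1 library, bars are means of 3 libraries, and open circles at the bottom stand for libraries with 0 counts. In every panel the grey DMSO symbols of a line sit below all coloured symbols of that line.

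**Figure D2:**
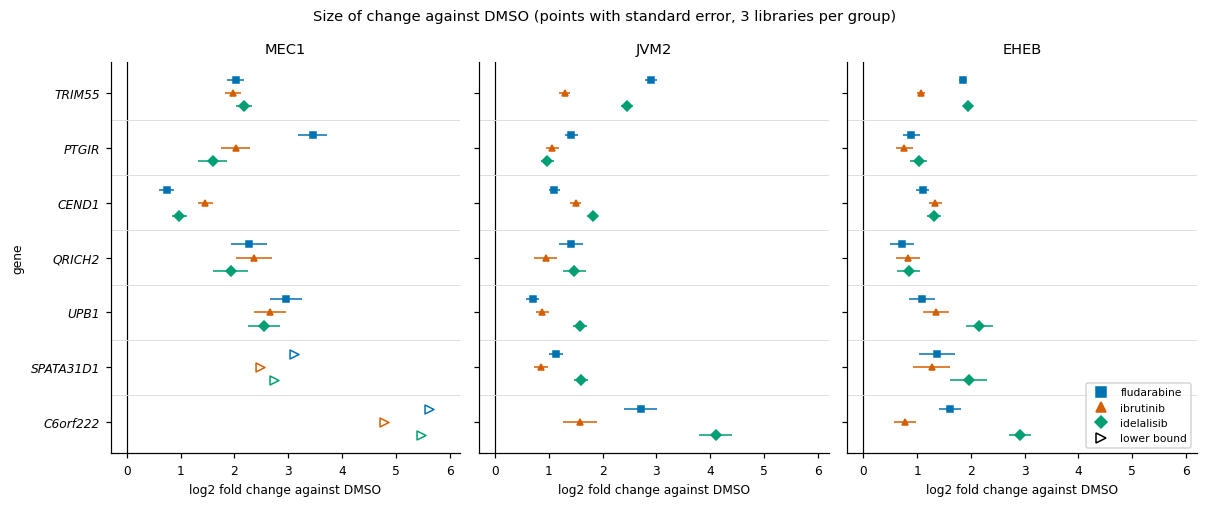
Log2 fold change against DMSO (horizontal axis) of each gene (rows) in MEC1, JVM2 and EHEB, with 3 libraries per group. Points with bars are fitted values with their standard error, and open triangles are bounds at 3 counts per library where DMSO had no count. All values lie to the right of 0, from 0.70 for UPB1 in JVM2 with fludarabine upwards.

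TRIM55, the muscle ubiquitin ligase, lies on the plus strand at chr8:66126896-66175485 of GRCh38, clear of any other annotated gene. In MEC1, TRIM55 was at 1.69, 2.16 and 1.39 CPM with DMSO, at 6.77, 7.79 and 7.01 with fludarabine, at 6.81, 6.68 and 6.91 with ibrutinib and at 8.32, 7.55 and 6.75 with idelalisib. In JVM2, TRIM55 was at 5.52, 5.06 and 5.04 CPM with DMSO, at 42.7, 43.0 and 33.4 with fludarabine, at 12.2, 13.5 and 13.0 with ibrutinib and at 28.0, 29.4 and 28.3 with idelalisib. In EHEB, TRIM55 was at 10.5, 11.7 and 11.7 CPM with DMSO, at 38.2, 41.1 and 40.5 with fludarabine, at 21.5, 23.4 and 25.1 with ibrutinib and at 43.3, 42.2 and 44 with idelalisib. The DMSO libraries of MEC1 were the lowest of all, and the 3 drugs brought MEC1 to a common level that remained below the DMSO level of EHEB. Over the 12 groups the order of the means was the clearest of the 7 genes, since the libraries of 8 of the 11 pairs of groups next to each other in that order did not overlap. The highest group was idelalisib in EHEB, at 43.2 ± 0.914 CPM (mean ± SD, n = 3). The log2 fold change against DMSO (± standard error) was 2.02 ± 0.15 for fludarabine, 1.98 ± 0.15 for ibrutinib and 2.18 ± 0.15 for idelalisib in MEC1. In JVM2 it was 2.90 ± 0.11 for fludarabine, 1.3 ± 0.10 for ibrutinib and 2.45 ± 0.11 for idelalisib. EHEB gave 1.85 ± 0.079 for fludarabine, 1.07 ± 0.078 for ibrutinib and 1.95 ± 0.079 for idelalisib.

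Between the drugs, in contrasts that hold no DMSO library, TRIM55 was lower with ibrutinib than with the other drugs in JVM2 and EHEB. The treated libraries had served to choose the genes, though the rule did not compare 1 drug with another. Idelalisib exceeded ibrutinib by a log2 difference of 1.15 (95% interval 0.93 to 1.38, adjusted p = 2.40e-05) in JVM2 and 0.88 (95% interval 0.71 to 1.05, adjusted p = 3.10e-05) in EHEB. In MEC1 the difference was 0.20 (95% interval −0.11 to 0.51, adjusted p = 0.412) and did not pass the threshold. Here and below the test is edgeR's quasi-likelihood F-test with Benjamini-Hochberg adjustment over all genes. Ibrutinib was below fludarabine, at −1.61 (95% interval −1.83 to −1.38, adjusted p = 3.38e-07) in JVM2 and −0.78 (95% interval −0.95 to −0.61, adjusted p = 1.36e-05) in EHEB, with no overlap of libraries in either line. Idelalisib was lower than fludarabine in JVM2, at −0.45 (adjusted p = 0.00362), and in EHEB the 2 differed by 0.10 (95% interval −0.066 to 0.27). Against fludarabine in MEC1, ibrutinib differed by −0.044 (95% interval −0.35 to 0.26) and idelalisib by 0.16 (95% interval −0.15 to 0.46), and neither passed. The calls made were kept in every alternative and with each library left out. With DMSO alone, TRIM55 was lower in MEC1 than in JVM2, at −1.56 (adjusted p = 1.64e-12) and lower than in EHEB, at −2.68 (adjusted p = 7.32e-18), and higher in EHEB than in JVM2 by 1.12 (adjusted p = 5.25e-10). Here and below, DMSO libraries compared between lines had also served to choose the genes, so these p values only describe the members.

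PTGIR, the prostacyclin receptor, lies on the minus strand at chr19:46620468-46625089, without an overlapping gene. In MEC1, PTGIR was at 1.14, 0.742 and 1.15 CPM with DMSO, at 12.1, 10.7 and 10.8 with fludarabine, at 4.84, 4.56 and 2.71 with ibrutinib and at 2.23, 3.30 and 3.18 with idelalisib. In JVM2, PTGIR was at 9.25, 11.4 and 12.6 CPM with DMSO, at 31.0, 30.6 and 29.0 with fludarabine, at 26.5, 18.9 and 25.1 with ibrutinib and at 21.4, 21.0 and 22.9 with idelalisib. In EHEB, PTGIR was at 9.97, 11.8 and 12.2 CPM with DMSO, at 23.6, 20.5 and 17.7 with fludarabine, at 16.9, 17.3 and 22.5 with ibrutinib and at 18.5, 26.4 and 23.8 with idelalisib. JVM2 and EHEB already carried about as much PTGIR without drug as MEC1 reached with fludarabine. MEC1_38 held the lowest value of all libraries, and MEC1_186 stood below the other ibrutinib libraries of its line. Fludarabine gave the largest change, a log2 fold change of 3.46 ± 0.27 in MEC1, against 2.02 ± 0.26 with ibrutinib and 1.59 ± 0.26 with idelalisib. The changes were smaller in JVM2, at 1.42 ± 0.12 for fludarabine, 1.07 ± 0.12 for ibrutinib and 0.97 ± 0.12 for idelalisib. In EHEB they were 0.89 ± 0.16 for fludarabine, 0.76 ± 0.16 for ibrutinib and 1.03 ± 0.16 for idelalisib.

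In MEC1, PTGIR was lower with ibrutinib than with fludarabine, at −1.44 (95% interval −1.96 to −0.91, adjusted p = 0.000411) and lower with idelalisib than with fludarabine, at −1.86 (95% interval −2.40 to −1.32, adjusted p = 5.21e-05). The same direction was seen in JVM2, at −0.35 (adjusted p = 0.0341) for ibrutinib and −0.45 (adjusted p = 0.0105) for idelalisib. The JVM2 call for ibrutinib was lost without the low library JVM2_233, at −0.21 (adjusted p = 0.150), and without JVM2_94, JVM2_95 or JVM2_96, at adjusted p values of 0.101, 0.0937 and 0.0684. Fitted over all 36 libraries, neither JVM2 call passed (adjusted p = 0.163 and 0.0627). EHEB gave −0.13 (95% interval −0.47 to 0.22) for ibrutinib and 0.14 (95% interval −0.21 to 0.49) for idelalisib against fludarabine, and neither passed. Idelalisib and ibrutinib differed by −0.43 (95% interval −0.96 to 0.11) in MEC1, −0.099 (95% interval −0.36 to 0.16) in JVM2 and 0.27 (95% interval −0.080 to 0.61) in EHEB, and no line passed the threshold. In DMSO libraries, PTGIR of MEC1 was below that of JVM2, at −3.45 (adjusted p = 3.04e-14) and below that of EHEB, at −3.49 (adjusted p = 2.08e-14), whereas EHEB and JVM2 differed by 0.036 (95% interval −0.34 to 0.41).

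The genes that supply the ligand of PTGIR were read alongside it. PTGIS, the synthase that makes prostacyclin, was at 0 counts in all 36 libraries. That level allows up to 3 counts in each, or up to 8 counts if 3 counts are a single read. PTGS1, the constitutive cyclooxygenase, ranged over 0.192 to 9.27 CPM in MEC1, 2.76 to 10.7 CPM in JVM2 and 1.49 to 7.87 CPM in EHEB, and was called higher than DMSO in 1 and lower in 3 of the 9 comparisons. PTGS2, the inducible cyclooxygenase, held at most 4 counts in a MEC1 library and was called in JVM2 and EHEB only, higher in 3 and lower in 2 of 6 comparisons. These partners were picked for their role in the pathway after values were seen.

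CEND1, the neuronal cell cycle exit protein, is encoded on the minus strand at chr11:787115-790113. In MEC1, CEND1 was at 4.20, 3.60 and 3.93 CPM with DMSO, at 6.43, 6.53 and 6.88 with fludarabine, at 11.1, 8.76 and 12 with ibrutinib and at 6.09, 8.53 and 7.45 with idelalisib. In JVM2, CEND1 was at 3.96, 3.85 and 3.91 CPM with DMSO, at 8.0, 8.59 and 9.09 with fludarabine, at 11, 9.94 and 12.6 with ibrutinib and at 13.5, 14.3 and 13.7 with idelalisib. In EHEB, CEND1 was at 4.82, 4.20 and 4.83 CPM with DMSO, at 11.1, 9.29 and 8.75 with fludarabine, at 10.7, 11.4 and 12.3 with ibrutinib and at 11.1, 10.7 and 12.2 with idelalisib. The DMSO level was nearly the same in the 3 lines, and all 9 DMSO libraries were below all 27 treated libraries. CEND1 was thus the only member whose DMSO level did not pass the test in any pair of lines, with a log2 difference of 0.011 (95% interval −0.25 to 0.27) between MEC1 and JVM2, −0.23 (95% interval −0.49 to 0.027) between MEC1 and EHEB, and 0.24 (95% interval −0.017 to 0.51) between EHEB and JVM2. Without EHEB_134 both differences with EHEB passed, at −0.37 (adjusted p = 0.0192) and 0.35 (adjusted p = 0.0297), and without MEC1_37 the first did, at −0.37 (adjusted p = 0.0228). Both also passed with all libraries kept when only genes with a mean of at least 1 CPM were tested, at −0.29 (adjusted p = 0.0338) and 0.28 (adjusted p = 0.0432). Its fitted changes spanned the narrowest range of the 7 genes. They were 0.74 ± 0.14 for fludarabine, 1.46 ± 0.14 for ibrutinib and 0.98 ± 0.14 for idelalisib in MEC1. JVM2 gave 1.10 ± 0.10 for fludarabine, 1.5 ± 0.10 for ibrutinib and 1.82 ± 0.10 for idelalisib. In EHEB the values were 1.10 ± 0.12 for fludarabine, 1.34 ± 0.12 for ibrutinib and 1.31 ± 0.12 for idelalisib.

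CEND1 was higher with ibrutinib than with fludarabine in MEC1, by 0.72 (95% interval 0.41 to 1.02, adjusted p = 0.00118), and in JVM2, by 0.40 (95% interval 0.18 to 0.61, adjusted p = 0.00677). The JVM2 value failed under library size scaling (adjusted p = 0.0664). EHEB gave 0.24 (95% interval −0.025 to 0.50), which passed only without EHEB_142, at 0.36 (adjusted p = 0.0481). Idelalisib exceeded fludarabine in JVM2, at 0.71 (adjusted p = 0.000135), but the difference was 0.24 (95% interval −0.070 to 0.55) in MEC1 and 0.21 (95% interval −0.053 to 0.47) in EHEB. Between the kinase inhibitors, the direction differed between MEC1 and JVM2. Idelalisib was lower than ibrutinib in MEC1, at −0.48 (adjusted p = 0.0391), and higher in JVM2, at 0.32 (adjusted p = 0.0426). Both calls were weak. That in MEC1 was lost without MEC1_184, MEC1_186, MEC1_190 or MEC1_192, with log2 differences from −0.51 to −0.39 and adjusted p from 0.0955 to 0.147. That in JVM2 was lost without JVM2_232, JVM2_233, JVM2_238, JVM2_239 or JVM2_240, with log2 differences from 0.25 to 0.33 and adjusted p from 0.0898 to 0.163. In EHEB the inhibitors differed by −0.028 (95% interval −0.29 to 0.23).

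UPB1, the last enzyme of pyrimidine breakdown, is encoded on the plus strand at chr22:24494107-24528390. The start that RefSeq annotates lies inside this span, so the promoter printed for UPB1 starts from another first base than the span does. The 5′ end of the span overlaps the antisense transcript ADORA2A-AS1, another long noncoding gene lies within UPB1 on the same strand, and whether reads were counted by strand is not given in the sources used here. In MEC1, UPB1 was at 0.278, 0.633 and 0.535 CPM with DMSO, at 3.15, 4.15 and 4.15 with fludarabine, at 3.91, 2.92 and 2.25 with ibrutinib and at 2.87, 2.47 and 2.74 with idelalisib. In JVM2, UPB1 was at 7.45, 7.26 and 7.54 CPM with DMSO, at 13.8, 10.7 and 12.1 with fludarabine, at 15, 15.1 and 11.2 with ibrutinib and at 22.0, 23.8 and 21.0 with idelalisib. In EHEB, UPB1 was at 5.48, 5.27 and 2.66 CPM with DMSO, at 9.97, 10.6 and 7.22 with fludarabine, at 10.4, 10.1 and 12.9 with ibrutinib and at 20.7, 21.2 and 17.0 with idelalisib. Idelalisib gave the highest levels in JVM2 and EHEB, and there its libraries did not overlap those of any other treatment. EHEB_135 stood apart from the other DMSO libraries of its line. The log2 fold change was largest in MEC1, where DMSO libraries held 12 to 29 counts, with 2.96 ± 0.30 for fludarabine, 2.67 ± 0.30 for ibrutinib and 2.55 ± 0.30 for idelalisib. It was 0.70 ± 0.12 for fludarabine, 0.88 ± 0.12 for ibrutinib and 1.58 ± 0.12 for idelalisib in JVM2. EHEB gave 1.09 ± 0.25 for fludarabine, 1.35 ± 0.25 for ibrutinib and 2.16 ± 0.25 for idelalisib.

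Idelalisib exceeded ibrutinib by 0.70 (95% interval 0.43 to 0.97, adjusted p = 0.00256) in JVM2 and 0.81 (95% interval 0.29 to 1.33, adjusted p = 0.0404) in EHEB. The EHEB call was lost without EHEB_280, EHEB_281, EHEB_282, EHEB_286, EHEB_287 or EHEB_288, although the difference stayed between 0.76 and 0.93, with adjusted p from 0.0552 to 0.123. Idelalisib also exceeded fludarabine, in JVM2 by 0.88 (adjusted p = 0.000149) and in EHEB by 1.07 (adjusted p = 0.00383), and these held in all alternatives run. No difference between drugs passed in MEC1, where idelalisib minus ibrutinib was −0.12 (95% interval −0.70 to 0.47). With idelalisib minus fludarabine, MEC1 gave −0.41 (95% interval −1.0 to 0.17), and library size scaling took it to −0.76 (adjusted p = 0.0294). Ibrutinib minus fludarabine was −0.29 (95% interval −0.88 to 0.29) there. Ibrutinib and fludarabine differed by 0.18 (95% interval −0.088 to 0.45) in JVM2, or 0.33 (adjusted p = 0.0403) without JVM2_234, and by 0.26 (95% interval −0.27 to 0.79) in EHEB. With DMSO, MEC1 was below JVM2, at −3.93 (adjusted p = 2.70e-13) and below EHEB, at −3.20 (adjusted p = 1.88e-11), and EHEB was below JVM2, at −0.73 (adjusted p = 0.00652). Without EHEB_135 the last became −0.42 (adjusted p = 0.107), and with only the groups compared −0.70 (adjusted p = 0.0582).

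The enzymes that act before UPB1 were read as well. DPYD, the dehydrogenase that opens the pathway, ranged over 21.3 to 32.9 CPM in MEC1, 32.3 to 121 CPM in JVM2 and 12.7 to 39.9 CPM in EHEB, and was called higher than DMSO in 2 and lower in 5 of 9 comparisons. DPYS, the hydrolase between DPYD and UPB1, held at most 16 counts in a MEC1 library and 11 in a JVM2 library, and did not pass the filter on low counts there. It was tested in EHEB alone, at up to 0.989 CPM, and was called in no comparison there. Both were picked as the other steps of the pathway after values were seen.

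QRICH2, the sperm flagellum gene, is encoded on the minus strand at chr17:76274049-76308276 and was among the weakest members. In MEC1, QRICH2 was at 0.417, 0.175 and 0.374 CPM with DMSO, at 1.53, 1.88 and 1.32 with fludarabine, at 1.86, 1.55 and 1.51 with ibrutinib and at 1.15, 1.43 and 0.945 with idelalisib. In JVM2, QRICH2 was at 0.630, 0.618 and 0.471 CPM with DMSO, at 1.47, 1.47 and 1.73 with fludarabine, at 1.14, 0.937 and 1.25 with ibrutinib and at 1.55, 1.67 and 1.57 with idelalisib. In EHEB, QRICH2 was at 1.62, 1.31 and 1.17 CPM with DMSO, at 1.87, 1.97 and 2.72 with fludarabine, at 2.35, 2.33 and 2.49 with ibrutinib and at 1.85, 2.53 and 2.86 with idelalisib. MEC1_38 held 8 counts, the fewest of any library, and no library exceeded 112. The treated groups of MEC1 and JVM2 reached about the level that EHEB had with DMSO, and the libraries overlapped in 8 of the 11 pairs of groups next to each other in the order of means. The change was largest in MEC1, with log2 fold changes of 2.27 ± 0.33 for fludarabine, 2.36 ± 0.33 for ibrutinib and 1.93 ± 0.33 for idelalisib. In JVM2 it was 1.41 ± 0.22 for fludarabine, 0.94 ± 0.22 for ibrutinib and 1.47 ± 0.22 for idelalisib. EHEB showed the smallest, at 0.72 ± 0.22 for fludarabine, 0.84 ± 0.22 for ibrutinib and 0.84 ± 0.22 for idelalisib.

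No difference between drugs passed the test for QRICH2 in any line. Idelalisib minus ibrutinib was −0.43 (95% interval −1.10 to 0.23) in MEC1, 0.53 (95% interval 0.076 to 0.99) in JVM2 and 0.0060 (95% interval −0.47 to 0.48) in EHEB. The JVM2 value passed when only genes with a mean of at least 1 CPM were tested (adjusted p = 0.0493), and so did ibrutinib minus fludarabine in JVM2, at −0.52 (adjusted p = 0.0360), or −0.60 (adjusted p = 0.0445) under library size scaling. The remaining intervals against fludarabine ran from −1.01 at the lowest to 0.75 at the highest, both in MEC1. In DMSO libraries MEC1 was below JVM2, at −0.82 (adjusted p = 0.0121), or at −0.53 (adjusted p = 0.150) without MEC1_38. The call was also lost with counts divided by 8/3 (adjusted p = 0.0989) and with only the groups compared (adjusted p = 0.123). MEC1 was below EHEB, at −2.07 (adjusted p = 9.42e-08), and EHEB was above JVM2 by 1.25 (adjusted p = 0.000127).

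SPATA31D1, of the testis family, is encoded on the plus strand at chr9:81988772-81995253, inside a long noncoding gene of the same strand. Its closely related copies SPATA31D3 and SPATA31D4 had 0 counts in all 36 libraries, and how reads shared between copies were assigned is not given in the sources used here. In MEC1, SPATA31D1 was at 0, 0 and 0 CPM with DMSO, at 0.709, 0.528 and 0.611 with fludarabine, at 0.652, 0.265 and 0.273 with ibrutinib and at 0.483, 0.401 and 0.553 with idelalisib. In JVM2, SPATA31D1 was at 2.52, 2.0 and 2.31 CPM with DMSO, at 5.63, 4.80 and 4.83 with fludarabine, at 3.94, 4.56 and 3.96 with ibrutinib and at 6.51, 7.46 and 6.72 with idelalisib. In EHEB, SPATA31D1 was at 0.732, 0.569 and 0.316 CPM with DMSO, at 1.20, 1.82 and 1.06 with fludarabine, at 1.02, 1.29 and 1.52 with ibrutinib and at 1.67, 2.1 and 2.42 with idelalisib. No MEC1 DMSO library held a single count, whereas the 9 treated MEC1 libraries held 12 to 34. The line order was JVM2 above EHEB above MEC1 in each treatment. Against a floor of 3 counts per DMSO library (0.0718 CPM), the treated means of MEC1 stood 8.58-fold higher with fludarabine, 5.53-fold with ibrutinib and 6.68-fold with idelalisib. Against 8 counts (0.191 CPM, about 3 reads), MEC1 was at least 3.22-fold, 2.07-fold and 2.50-fold higher in the same order. In JVM2 the log2 fold change was 1.13 ± 0.13 for fludarabine, 0.85 ± 0.13 for ibrutinib and 1.59 ± 0.13 for idelalisib. It was 1.37 ± 0.34 for fludarabine, 1.27 ± 0.34 for ibrutinib and 1.96 ± 0.34 for idelalisib in EHEB.

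Idelalisib exceeded ibrutinib for SPATA31D1 in JVM2, by 0.74 (95% interval 0.45 to 1.03, adjusted p = 0.00277), and fludarabine there by 0.46 (95% interval 0.18 to 0.74, adjusted p = 0.0141). Fitted over all 36 libraries, these had adjusted p values of 0.0699 and 0.191, and the second was lost without JVM2_239, at 0.42 (adjusted p = 0.0506). EHEB had the same direction for idelalisib against ibrutinib, at 0.69 (95% interval −0.021 to 1.4), without passing. MEC1 gave 0.32 (95% interval −0.74 to 1.38), a wide interval. Ibrutinib and fludarabine differed by −0.59 (95% interval −1.64 to 0.47) in MEC1, −0.28 (95% interval −0.57 to 0.0059) in JVM2 and −0.097 (95% interval −0.81 to 0.62) in EHEB, and the JVM2 value passed under library size scaling, at −0.40 (adjusted p = 0.0278). Idelalisib minus fludarabine was −0.27 (95% interval −1.32 to 0.78) in MEC1 and 0.59 (95% interval −0.12 to 1.3) in EHEB, and neither passed. With DMSO, JVM2 was at least 11.9-fold higher than MEC1 (adjusted p = 1.73e-13) and EHEB at least 2.82-fold higher (adjusted p = 3.38e-10). Both are bounds against 8 counts per MEC1 library, and against 3 counts they were 31.7-fold and 7.51-fold. EHEB was below JVM2, at −2.08 (adjusted p = 1.36e-06).

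C6orf222, the intestinal gene, is encoded on the minus strand at chr6:36315761-36336888 without an overlapping gene. In MEC1, C6orf222 was at 0, 0 and 0 CPM with DMSO, at 3.77, 3.79 and 2.96 with fludarabine, at 2.34, 1.84 and 1.77 with ibrutinib and at 2.44, 4.05 and 3.09 with idelalisib. In JVM2, C6orf222 was at 0.180, 0.272 and 0.330 CPM with DMSO, at 1.52, 1.88 and 1.90 with fludarabine, at 1.06, 0.483 and 0.851 with ibrutinib and at 3.94, 4.20 and 5.61 with idelalisib. In EHEB, C6orf222 was at 0.959, 0.667 and 0.902 CPM with DMSO, at 2.05, 2.78 and 2.75 with fludarabine, at 1.38, 1.59 and 1.31 with ibrutinib and at 6.70, 6.96 and 5.29 with idelalisib. It went from 0 counts in all 3 MEC1 DMSO libraries to between 83 and 182 in the treated ones. In JVM2 the DMSO libraries held 6 to 14 counts and the idelalisib libraries 147 to 272. Against 3 counts per DMSO library the treated means of MEC1 stood 48.9-fold higher with fludarabine, 27.6-fold with ibrutinib and 44.5-fold with idelalisib. Against 8 counts the change was at least 18.3-fold, 10.4-fold and 16.7-fold. The largest fitted change of the 7 genes was its log2 fold change of 4.10 ± 0.31 with idelalisib in JVM2, beside 2.71 ± 0.31 with fludarabine and 1.58 ± 0.32 with ibrutinib. EHEB gave 1.61 ± 0.20 for fludarabine, 0.78 ± 0.20 for ibrutinib and 2.92 ± 0.21 for idelalisib.

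The order of the drugs was the same for C6orf222 in JVM2 and EHEB, with idelalisib above fludarabine above ibrutinib and no overlap between libraries. Idelalisib exceeded ibrutinib by 2.52 (95% interval 1.90 to 3.13, adjusted p = 0.000140) in JVM2 and 2.14 (95% interval 1.70 to 2.57, adjusted p = 4.51e-05) in EHEB. It exceeded fludarabine by 1.39 (adjusted p = 0.00142) and 1.3 (adjusted p = 0.000204), and ibrutinib was below fludarabine, at −1.13 (adjusted p = 0.00673) and −0.83 (adjusted p = 0.00684). These 6 calls were kept in all alternatives and with each library left out. In MEC1, ibrutinib was again below fludarabine, at −0.79 (adjusted p = 0.0165), but the call was lost without MEC1_46, MEC1_47, MEC1_185 or MEC1_186, with log2 differences from −0.75 to −0.70 and adjusted p from 0.0505 to 0.0591. Idelalisib and fludarabine differed by −0.051 (95% interval −0.56 to 0.46) there. Idelalisib minus ibrutinib in MEC1, at 0.74 (95% interval 0.22 to 1.25, adjusted p = 0.0602), missed the threshold but passed it with 5 alternatives, at adjusted p from 0.0236 (DESeq2) to 0.0488. With DMSO, EHEB was above JVM2 by 1.67 (adjusted p = 1.42e-05), JVM2 at least 1.36-fold above MEC1 (adjusted p = 3.61e-09) and EHEB at least 4.41-fold above MEC1 (adjusted p = 1.30e-12), both against 8 counts per MEC1 library. Against 3 counts these were 3.63-fold and 11.7-fold. The JVM2 libraries held only 6 to 14 counts here, and the filter on low counts also drew on the treated groups, where C6orf222 was higher.

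Counted over the 7 genes, idelalisib differed from ibrutinib most often in JVM2. There 5 genes (TRIM55, CEND1, UPB1, SPATA31D1, C6orf222) were higher with idelalisib and none lower, while 18.7% of all genes tested were called in either direction. In EHEB 3 genes (TRIM55, UPB1, C6orf222) were higher and none lower (all genes, 15.9%), and in MEC1 CEND1 alone was called, lower with idelalisib (all genes, 15.4%). Ibrutinib against fludarabine gave 1 higher and 2 lower genes in MEC1, then 1 and 3 in JVM2 and 0 and 2 in EHEB, against 51.4%, 42.7% and 33.3% of all genes. The 5 lower calls in JVM2 and EHEB were of TRIM55 and C6orf222 in both lines and of PTGIR in JVM2. Idelalisib against fludarabine gave 1 lower in MEC1 (PTGIR), 4 higher and 2 lower in JVM2, and 2 higher in EHEB (UPB1, C6orf222), against 56.2%, 41.1% and 42.7% of all genes. Outside JVM2, the shares of members called against fludarabine were below those of all genes. Of the 27 calls among 63 tests between drugs, 18 held in every alternative and with each library left out.

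**Figure D3:**
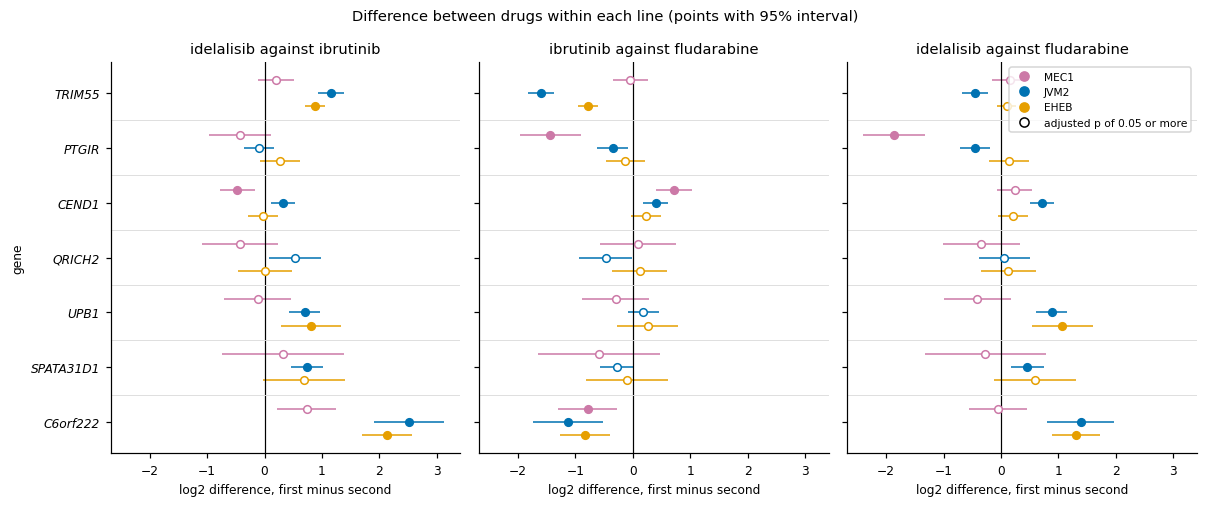
Log2 difference between drugs (horizontal axis, first drug minus second, with 95% interval) for each gene (rows) and line (colours). Filled points had an adjusted p under 0.05. In the panel of idelalisib against ibrutinib, TRIM55 and C6orf222 lie to the right of 0 in JVM2 and EHEB, at 1.15 and 0.88 and at 2.52 and 2.14.

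Whether the differences between the drugs varied between the lines was tested as the interaction of drug and line over the 3 treated groups, with no DMSO library in the contrast. It passed for 5 of the 7 genes, against 49.6% of all genes. The edgeR adjusted p was 3.47e-08 for TRIM55, 1.22e-06 for PTGIR, 0.000253 for C6orf222, 0.00107 for UPB1 and 0.00186 for CEND1. It was 0.126 for QRICH2, or 0.0454 under library size scaling, and 0.313 for SPATA31D1. For TRIM55 the drugs lay together in MEC1 and apart in the other lines, while for PTGIR it was in MEC1 that fludarabine stood furthest above the kinase inhibitors. In DMSO libraries 6 of the 7 genes were lower in MEC1 than in JVM2, where 57.1% of all genes were called in either direction. Against EHEB 6 were lower as well (all genes, 60.6% in either direction), CEND1 being the exception in both. SPATA31D1 and C6orf222 held 0 counts in these MEC1 libraries. With only the groups compared, 6 genes passed the filter for MEC1 against JVM2 and 4 of them were called. Between EHEB and JVM2, 3 were higher in EHEB (TRIM55, QRICH2, C6orf222) and 2 lower (UPB1, SPATA31D1), against 53.2% of all genes in either direction. The same DMSO libraries had served to choose the genes, and a low DMSO level favours being chosen. The counts and p values between lines are therefore a description of the members.

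Per kilobase of annotated exon, which allows levels of different genes to be set side by side, the members differed widely with DMSO. In JVM2 PTGIR (3.15 CPM per kilobase), CEND1 (2.40), TRIM55 (1.69) and UPB1 (1.09) lay above SPATA31D1 (0.442), QRICH2 (0.0944) and C6orf222 (0.0698). EHEB had TRIM55 (3.67), PTGIR (3.23) and CEND1 (2.84) at the top. In MEC1 only CEND1 (2.40) exceeded 1 CPM per kilobase. Replicate spread differed between the genes. The coefficient of variation over 3 libraries had a median over groups of 5.61% for TRIM55 and 7.44% for CEND1, and between 14.4% and 16.3% for the other 5. It was widest for SPATA31D1 with ibrutinib in MEC1 (55.7%), where MEC1_184 held 34 counts and the other libraries 12 and 13, and for QRICH2 with DMSO in MEC1 (40.2%).

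Over the 12 group means the 7 genes ran alike in part. Pearson's r of mean log2 CPM between pairs of members lay between 0.51 and 0.95 (21 pairs, median 0.73), and within lines, after removal of each line's mean, between 0.59 and 0.97. All points share the lines, drugs and depths of the 36 libraries, and the choice of genes fixed the DMSO group as the lowest of each line, so these are descriptions without a test. Among 15180 other genes, those whose group means ran most like a member's were IRF9, a subunit of the interferon-activated ISGF3 complex, for TRIM55 (r = 0.96, n = 12 groups) and FLVCR2, a transporter, for UPB1 (r = 0.98). PTGIR ran like SPN, the leucocyte sialoglycoprotein CD43 (r = 0.97), and GP1BA, the platelet receptor for von Willebrand factor (r = 0.97, Spearman's rho 0.80). For QRICH2 these were ZNF547 (r = 0.97) and CYP2D6, a drug-metabolising cytochrome (r = 0.96). For SPATA31D1 they were LINC00954 (r = 0.97) and the zinc finger gene ZFP3 (r = 0.97). CEND1 and C6orf222 had looser matches, with BRD9, a chromatin remodelling subunit (r = 0.92), and KRR1 (r = 0.91) for CEND1, and the pseudogene RNF2P1 (r = 0.92) and RBM5, a splicing regulator (r = 0.91), for C6orf222. LINC01465 (r = 0.96) and the pseudogene FTOP1 (r = 0.95) came next for TRIM55 and UPB1. No member was the closest match of another.

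The genes next to each member on the chromosome were read in the same comparisons. The nearest gene on each side that was tested in all lines, and 1 overlapping gene, gave 15 neighbours, each tested in 9 comparisons with DMSO, of which 30 in all were higher, 27 lower and 78 neither by edgeR's adjusted p. These are shares of 22.2% higher and 20% lower, near the 19.4% and 20.4% over all genes. No neighbour was higher in all 9 comparisons. ETV7, an ETS repressor that lies 17203 bases from C6orf222 on the same strand, came closest with 7 of 9 higher, its log2 fold changes spanning −0.25 to 2.40. SLC25A22, a mitochondrial glutamate carrier on the same strand 362 bases from CEND1, was higher in 1 and lower in 2 (−0.42 to 0.66). UBALD2, 2751 bases from QRICH2 on the other strand, was lower in all 9 (−1.08 to −0.18), and PRPSAP1 on its other side, at 1202 bases, was lower in 2 (−0.52 to 0.41).

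The calmodulin gene CALM3 beside PTGIR was lower in 6 comparisons and higher in none (−1.04 to 0.097). GNG8, a G protein gamma subunit 8864 bases from PTGIR on its other side, was higher in 4. These were fludarabine in EHEB and every drug in MEC1, where a group held 3 counts or fewer per library. ADORA2A-AS1, which overlaps UPB1 on the opposite strand, was higher in 2 of 9 (−0.060 to 0.89), and the adenosine receptor gene ADORA2A was lower in 4. GUCD1, on the far side of UPB1, was lower in 2. Beside TRIM55, DNAJC5B was higher in 4 and RRS1 in none. TLE1 and FRMD3, which lie 299225 and 1247737 bases from SPATA31D1, were each higher in 3 and lower in none. For the FRMD3 call with fludarabine in MEC1, a group held 3 counts or fewer per library. BRPF3, 82971 bases from C6orf222, was higher in 5 and lower in 2, and GATD1 beside CEND1 was higher in 1.

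Other genes of the same tissues or pathways were read for comparison, in 8 lists of 15 to 24 genes without the members. The background of calls against DMSO was as follows. In MEC1, 21.2% of all genes were higher and 22.7% lower with fludarabine, 23.7% and 23.9% with ibrutinib, and 27.6% and 27.4% with idelalisib. In JVM2 the shares were 23.9% and 23.3%, 14.5% and 15%, and 21.6% and 22.6%. In EHEB they were 18.4% and 19.2%, 8.50% and 11.2%, and 15.1% and 18.2%. Pooled over the 9 comparisons, 19.4% of gene and comparison pairs were higher and 20.4% lower among all genes, and 24.8% and 14.6% in the 666 pairs of the 8 lists. The filter on low counts drew on treated groups too, so a list gene low with DMSO could enter through a treated group where it was high. That favours higher calls, so the list shares are a description. Lists whose calls changed with a mean of at least 1 CPM are given with the processing below. No gene of any list was higher in all 9. List medians hold genes without counts in a group at their bound of 3 counts per library, and the fitted median follows where it differs.

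The sperm flagellum list, taken for QRICH2, had the most higher calls, with 52 of 150 pairs higher and 12 lower and a median log2 fold change of 0.52 against 0.029 over all genes. In MEC1, 9 of its 16 tested genes were higher with each drug. With fludarabine or ibrutinib in EHEB it was 1 of 16. AKAP3, an anchoring protein of the sperm tail, was higher in 7 of 9 comparisons (0.20 to 1.34), and FSIP2 and CFAP44, further flagellar genes, in 6 each (−0.76 to 4.14 and 0.47 to 1.75). DNAH8, a dynein heavy chain, was higher in 6 as well, but only 6 of its 9 comparisons had more than 3 counts per library in both groups. The testis and germ cell list, taken for SPATA31D1, had 13 of 54 pairs higher and 4 lower (median 0.28, or 0.31 as fitted). SYCP3, of the meiotic chromosome axis, was higher in 4 of 9 comparisons and the cancer-testis gene MAGEA1 in 3 of 6 and lower in 1, whereas SPATA18 was higher in 2 of 6 and lower in 3. DAZL, a germ-cell RNA-binding protein, was higher in 3 of 9, and in 6 of the 9 a group held 3 counts or fewer per library.

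The neuronal list, taken for CEND1, had 24 of 102 pairs higher and 11 lower (median 0.37). SYN1, a synaptic vesicle protein, was higher in 7 comparisons and the presynaptic scaffold BSN in 5 (0.16 to 2.0). For SYN1 only 6 of the 9 comparisons had more than 3 counts per library in both groups. STX1A, a SNARE protein, was higher in 4 (−0.11 to 0.91), but ENO2, the neuronal enolase, was lower in 7 (−2.09 to −0.42). Of the prostanoid list, taken for PTGIR, 26 of 93 pairs were higher and 14 lower (median 0.24). TBXAS1, thromboxane synthase, was higher in 7 and lower in 1 (−0.97 to 1.90), and ABCC4, an exporter of prostaglandins, was higher in 6 and lower in 3 (−0.57 to 0.63). The prostaglandin E2 receptor gene PTGER2 was higher in 1 and lower in 3.

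For TRIM55, the striated muscle list had 16 of 78 pairs higher and 12 lower (median 0.058, or 0.090 as fitted), a share of higher calls close to that over all genes. TTN, which encodes titin, was higher in 7 and lower in 1 (−0.65 to 1.32), and the muscle ubiquitin ligase FBXO32 was higher in 3 and lower in 3. MYH7, a myosin heavy chain, was higher in 3 of 6 and the troponin gene TNNI1 lower in 5 of 9. Both groups held more than 3 counts per library in 3 of the 6 for MYH7 and in 7 of the 9 for TNNI1. The other MuRF genes were at or near 0, TRIM63 with 0 counts in all 36 libraries and TRIM54 with at most 9. For UPB1, the pyrimidine breakdown list had more lower than higher calls, with 18 of 108 pairs higher and 32 lower (median −0.17). NT5E, the ecto-5′-nucleotidase CD73, was higher in 7 and lower in 1 (−1.07 to 2.51) and TYMP, thymidine phosphorylase, higher in 5 and lower in 2 (−0.59 to 1.44), while TK1, the S-phase thymidine kinase, was lower in 6 (−2.05 to 0.062) and UPP1, uridine phosphorylase, higher in 1 and lower in 5 (−1.29 to 1.39).

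The liver list had 9 of 39 pairs higher and 7 lower (median 0.10, or 0.00054 as fitted), and only 6 of its 20 genes were tested in any line. CYP2E1, a cytochrome, was higher in 4 (0.23 to 3.06), CPS1 of the urea cycle lower in 4 (−0.94 to 1.90), and SERPINA1 higher in 3 and lower in 3. AMBP was higher in 2 of 3, each with a group of 3 counts or fewer per library. Of the intestinal list, taken for C6orf222, 8 of 18 genes were tested, with 7 of 42 pairs higher and 5 lower (median 0.093, or 0.084 as fitted). CDH17, the intestinal cadherin, was lower in 4 of 6 (−4.16 to −0.10). GUCY2C and FABP2 were higher in 2 of 3 and MUC2 in 2 of 6, each with a group of 3 counts or fewer per library.

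**Figure D4:**
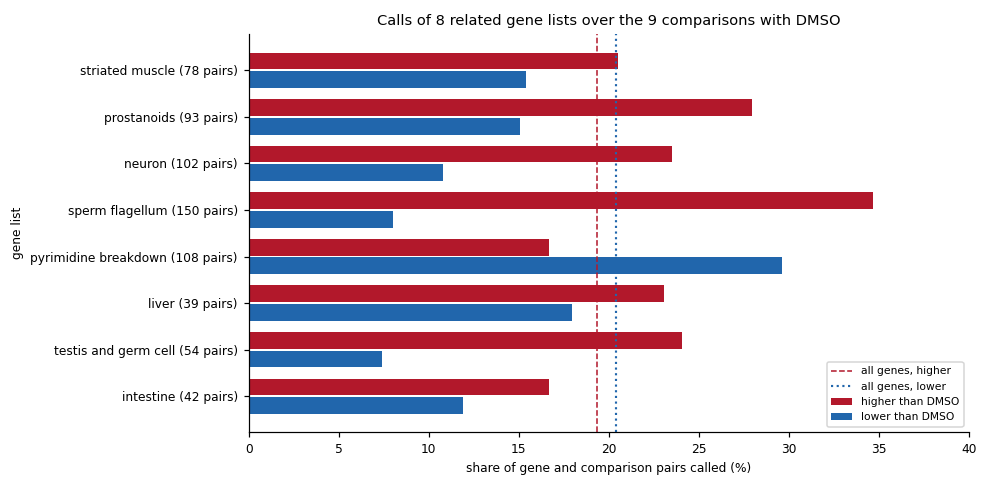
Share of gene and comparison pairs called higher (red) or lower (blue) than DMSO (horizontal axis, percent, from 0) in each of the 8 gene lists, with the shares over all genes as dashed and dotted lines. The sperm flagellum list has 34.7% higher and 8.0% lower, and pyrimidine breakdown 16.7% and 29.6%.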

How the data were processed

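Ribosome-depleted RNA of 36 libraries was analysed. The values are estimated counts per gene symbol that the authors deposited without normalisation, and that were whole numbers in the file. Per the study's methods, reads were trimmed with Trimmomatic, aligned with HISAT2 2.1 to GRCh38 and quantified with StringTie 1.3.4 against an Ensembl annotation, with release and strand setting unstated. Low counts piled up at multiples of about 8/3 (36308 values of 3 against 23798 of 2 and 13180 of 4), which was met by an alternative with counts divided by 8/3, chosen after seeing the data. The row without a symbol (0.00384% of counts) was left out.

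Groups came from the sample labels. Counts were fitted with edgeR 4.0.16 (R 4.3.3), with TMM scaling and the quasi-likelihood F-test. Fits ran over the 12 libraries of a line, or over all 36 for lines and the interaction of drug and line. The filter on low counts was filterByExpr, which turned 10 counts at the median library size into a CPM limit. A gene had to reach that limit in at least 3 libraries, the size of a group, and to hold at least 15 counts over all. The threshold was a Benjamini-Hochberg adjusted p of 0.05 over all genes. CPM scale counts to 1000000 by the TMM-scaled library size. Members have no test against DMSO, since those comparisons chose them. A fold against a group without counts is a bound at 3 counts per library, given also at 8 counts (chosen after seeing the data), which covers counting error only. The 3 libraries of a group differed beyond sampling noise (chi-square per degree of freedom 27.2 to 53.6 over 36 pairs). Depth was 26590705 to 53538925 counts per library.

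Alternatives were library size scaling, DESeq2 1.42.0, no filter, voom with limma 3.58.1, a mean of at least 1 CPM, other sets of libraries, and each library left out. The text names the 7 members, the 2 genes most like each over 12 groups, their tested neighbours, and at most 4 genes per list with the most calls in 1 direction. PTGS2, PTGIS, DPYD, DPYS, TRIM54, TRIM63 and the SPATA31D copies were added by role after values were seen. The members and lists were chosen with earlier results of these data known. The fits were tested on simulated data. Tables were handled with Python 3.11.15, pandas 2.3.3, numpy 2.4.6 and scipy 1.17.1, and plots with matplotlib 3.10.9. Gene positions and exon lengths are from GENCODE on GRCh38, and promoters from RefSeq on GRCh38.p14. Some items are not reported here.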

Additional observations from a re-analysis of the deposited data

Results flagged for a closer look

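The difference between the drugs was not the same in the 3 lines for 5 of the 7 genes, against 49.6% of all genes, by the interaction of drug and line over the fludarabine, ibrutinib and idelalisib groups (edgeR quasi-likelihood F-test, Benjamini-Hochberg adjusted over all genes). The adjusted p was 3.47e-08 for TRIM55, the muscle ubiquitin ligase, and 1.22e-06 for PTGIR, the prostacyclin receptor. It was 0.000253 for C6orf222, 0.00107 for UPB1 and 0.00186 for CEND1. Each line had its own exposure time, so line and time cannot be told apart. Fludarabine and the kinase inhibitors come from separate runs of library numbers, so a difference between them cannot be told apart from one between runs, while ibrutinib and idelalisib share a run.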

How the results depend on the processing

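No value of the 7 genes was reversed past the threshold in an alternative. Scaling by library size took the median log2 fold change of the members to 3.21 with fludarabine in MEC1, and in JVM2 to 1.61 with fludarabine, 1.15 with ibrutinib and 1.69 with idelalisib. With a mean of at least 1 CPM the first was 2.67, over 6 genes. Bounds at 8 in place of 3 counts per library, added after seeing the data, took it to 2.27 and that with ibrutinib in MEC1 from 2.36 to 2.02. With each library left out, the 4 medians named for library size scaling ranged from 2.68 to 3.19, from 1.28 to 1.44, from 1.00 to 1.21 and from 1.55 to 1.68. For idelalisib against ibrutinib in MEC1, 2 genes were called with DESeq2, limma-voom, all 36 libraries, counts divided by 8/3 or a mean of at least 1 CPM, 0 without a filter or with only the groups compared, and 0 to 1 with a library left out. For idelalisib against fludarabine in MEC1, library size scaling called 2, and for idelalisib against ibrutinib in JVM2 the fit over all 36 libraries called 3. The cause of these changes was not tested. Among the lists, a mean of at least 1 CPM left 10 higher calls for muscle, 8 for testis and germ cells and 3 for intestine, where counts divided by 8/3 left 4, and the fit over all 36 libraries left 7 lower calls for muscle.

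Of the 27 calls between drugs, 8 were lost in an alternative and 6 with a library left out, and 18 held in all. Between lines, 13 of the 17 tests with a fitted difference were called and 11 of these held in all. The 4 tests with a MEC1 group at 0 counts are not among them. All tests between lines used DMSO libraries that had served to choose the genes. No paired analysis was possible because each library number occurs once and pairs no libraries between groups. Depth limits SPATA31D1, QRICH2 and C6orf222 most, since their MEC1 DMSO libraries held 0 to 18 counts.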
